A study of Mus musculus with 28 samples.

Results

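Long terminal repeat (LTR) elements outside the ERVK family were followed through RNA immunoprecipitation (RIP) with a ZBP1 antibody from mouse hippocampus. The count table names each repeat by its own name, its family and its class. All rows of class LTR with a family other than ERVK were taken, provided that their counts summed to at least 100 over the 4 libraries. This kept 336 of 344 such rows, in a table of 25227 rows that holds 23995 gene rows and 1232 repeat rows. The 336 are 114 of family ERV1, 116 of ERVL, 65 of ERVL-MaLR, 24 of Gypsy and 17 listed as LTR with no finer family. Just inside the minimum lay LTR108c_Mam with 100 counts, UCON51 with 102 and LTR45 with 118. Just outside lay LTR45C with 87 counts and MER101B and UCON103 with 88 each.

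Wild-type (WT) and 5xFAD mice each gave 1 library of input RNA and 1 of RNA recovered with the ZBP1 antibody (IP), 4 in all. Animals were 9 months old and RNA came from hippocampus. The 5xFAD line carries transgenes that the neuronal Thy1 promoter drives, and is a model of amyloid deposition rather than of the whole of Alzheimer's disease. Each group is 1 library, and the labels do not say how many animals went into it. No antibody control library and no Zbp1-deficient IP was analysed here, so the input is the background for every IP value. With 1 library per group there is no test between conditions. All intervals are exact 95% intervals on the ratio of CPM, which are counts scaled to the library total, and they cover counting error only.

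LTR elements are remnants of retroviruses and of related retrotransposons, and each intact copy has an internal part between its terminal repeats. Copies are found on both strands of the genome, within introns as well as between genes, and their transcripts can pair with inverted copies to form double-stranded RNA. ZBP1 is an innate immune sensor whose Zα domains bind Z-form nucleic acids, and it signals through RIPK1 and RIPK3. ERV1 elements resemble gammaretroviruses. ERVL elements are an older class without an envelope gene, and the ERVL-MaLR repeats (MT and ORR1 in rodents, MLT1 across mammals) are short dependents of that class that encode no proteins. Gypsy elements are ancient in mammals and survive as short fragments.

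Non-ERVK LTR rows held nearly the same share of the library in IP as in input. They took 16.8% of counts in the WT input and 16.7% in the WT IP, and 17.3% and 16.1% in the 5xFAD input and IP. The summed IP over input ratio was 0.991 in WT (95% interval 0.989 to 0.994) and 0.930 in 5xFAD (0.927 to 0.932). These ratios are on CPM of the whole library, and scaling with edgeR's TMM or DESeq2's size factors put both above 1. On the log2 scale the sums were -0.013 in WT and -0.11 in 5xFAD by library total, and 0.15 and 0.20 by TMM. TMM moved the median of all rows with at least 100 counts from -0.16 to 0.008 in WT and from -0.34 to -0.032 in 5xFAD. The level of the families as a whole against input therefore rested on the scaling, whereas differences between rows of the same library pair do not depend on it. TMM adds 1 constant to the log2 ratios of a genotype, so ratios above or below 1, and directions between genotypes, hold for library totals unless another scaling is named. In whole tissue, fewer cells that carry a transcript and less of it per cell cannot be told apart.

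No row of these families was 2-fold higher or 2-fold lower in IP than input, in either genotype, by library total or by any of the other scalings tried. The library-total ratios of the 336 rows ran on the log2 scale from -0.87 to 0.43 in WT and from -0.79 to 0.52 in 5xFAD. Among all 9990 rows with at least 100 counts, 0.41% were at least 2-fold higher in the WT IP and 1.85% at least 2-fold lower, and in 5xFAD 0.23% and 6.71%. Among the 831 repeat rows outside these families the same shares were 0.0% and 0.12% in WT, and 0.12% and 0.12% in 5xFAD. Counts of 0 were thus close to the background of other repeats.

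**Figure D1:**
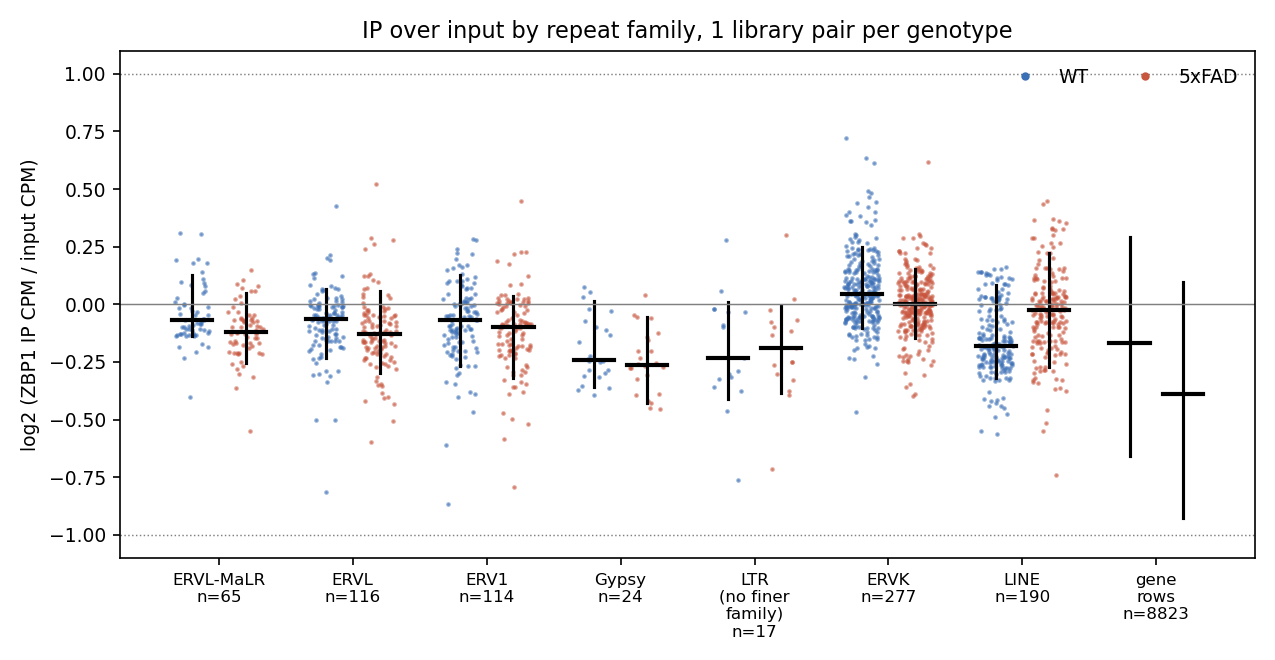
Log2 ratio of ZBP1 IP CPM to input CPM (y axis) by repeat family (x axis) in WT (blue) and 5xFAD (red), with 1 library pair per genotype. Each point is a row of the count table, thick bars are medians and vertical lines run from the 10th to the 90th percentile (only these are drawn for the 8823 gene rows); dotted lines mark a 2-fold difference, which no row of the 5 families on the left passes.

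Relative to other rows of the same libraries, these families lay by median between the ERVK repeats and the genes. Their median log2 IP over input was -0.072 in WT and -0.12 in 5xFAD, against 0.044 and 0.002 for 277 ERVK rows and -0.17 and -0.39 for 8823 gene rows. ERVK holds the intracisternal A particles and the mouse mammary tumour virus relatives. In WT 257 of 336 rows (76.5%) lay above the gene median and in 5xFAD 316 (94.0%), while 58 (17.3%) and 56 (16.7%) lay above the ERVK median. Against the 190 rows of class LINE the order differed between genotypes. The LTR median was 0.11 above the LINE median in WT and 0.099 below it in 5xFAD, where the LINE median was -0.027. The same comparison with 34 SINE rows put the LTR median higher in both genotypes, by 0.073 and 0.12, and with 278 DNA transposon rows by 0.14 and 0.045. These gaps between medians stand under any scaling, but with 1 library pair each they have no replicate check. The size of the WT gap to the genes depended on the pseudocount, which was 0.5. At a pseudocount of 5 the WT medians were -0.067 for these rows and -0.084 for genes, and in 5xFAD -0.12 and -0.30. By summed counts the genes were higher, at log2 ratios of 0.26 and -0.070 against -0.013 and -0.11. Ribosomal rows weigh heavily on these gene sums. In WT, Rn45s and Rn18s counted 10322 and 4010 of 486623 in the input, and 49002 and 42643 of 374532 in the IP. In 5xFAD they counted 13872 and 7036 of 540752, and 40195 and 35703 of 371497. Gene sums without these rows were not computed.

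By family, ERVL-MaLR supplied most of the reads and Gypsy the fewest. ERVL-MaLR rows held 12% of the WT input, 12.1% of the WT IP, 12.4% of the 5xFAD input and 11.6% of the 5xFAD IP. ERVL rows held 2.51%, 2.4%, 2.55% and 2.37% in the same order, and ERV1 rows 1.7%, 1.64%, 1.74% and 1.61%. The rows with no finer family held 0.532%, 0.518%, 0.565% and 0.475%, and the Gypsy rows 0.0685%, 0.06%, 0.0707% and 0.059%. In every family the 5xFAD IP had the lowest share of the 4 libraries. Median log2 IP over input in WT and 5xFAD was -0.069 and -0.12 for ERVL-MaLR, -0.064 and -0.13 for ERVL and -0.067 and -0.097 for ERV1. Gypsy stood lower by median, at -0.24 and -0.26, as did the rows with no finer family, at -0.23 and -0.19. DNA transposon rows had medians of -0.21 and -0.17. In sum the rows with no finer family had ratios of 0.973 in WT and 0.840 in 5xFAD. The WT sum was above those of ERV1 (0.963) and ERVL (0.959), and RLTR4_MM-int held 42483 of its 47436 input counts.

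**Figure D2:**
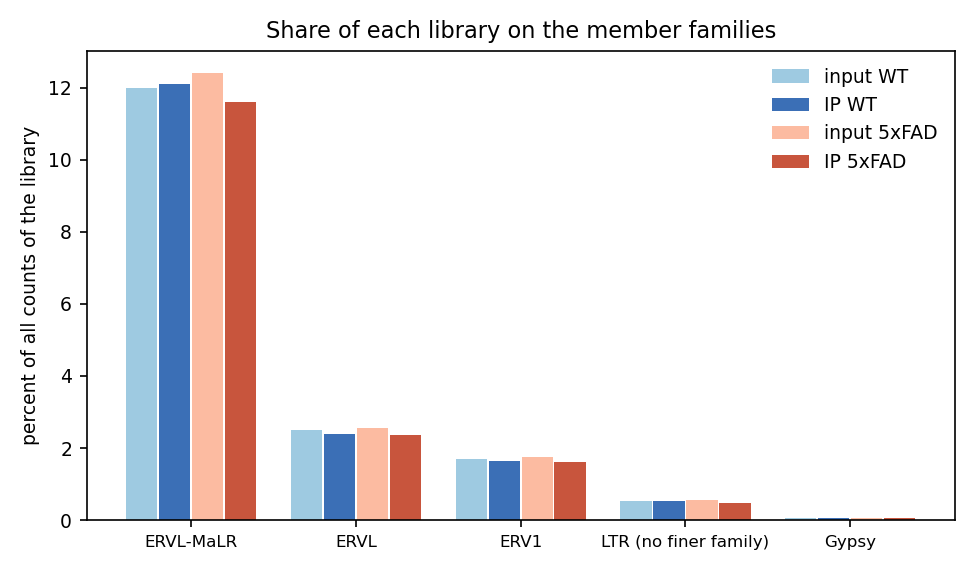
Percent of all counts of a library (y axis, from 0) that fell on each of the 5 families (x axis) in the 4 RIP libraries, 1 bar per library and without replicates. Within each family the 4 bars are close in height, with ERVL-MaLR between 11.6% and 12.4% and Gypsy under 0.1% throughout.

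Counting intervals off 1 were frequent among these rows, many of which are deep, and most of them lay below 1 by library total. In WT the interval lay wholly above 1 for 22 rows (6.55%) and wholly below 1 for 93 (27.7%), where the background over all 9990 rows was 2.61% and 10.1%. In 5xFAD the counts were 6 (1.79%) above and 144 (42.9%) below, against a background of 1.66% and 25.0%. Repeat rows outside these families had 15.8% above and 33.6% below in WT, and 13.2% and 27.6% in 5xFAD. The split depends on the scaling. The number of rows with a ratio above 1 was 84 of 336 (25.0%) in WT and 56 (16.7%) in 5xFAD by library total, near the 31.5% and 16.9% over all 9990 rows. Other repeat rows had 32.9% and 33.3%. The numbers for the 336 rows were 253 and 296 by TMM, and 26 and 210 by the total of the gene rows. Intervals lay above 1 in both genotypes for 5 rows (1.49%), against 0.861% of all rows and 6.98% of other repeat rows. They lay below 1 in both for 63 (18.8%), against 3.91% of all rows and 15.8% of other repeat rows, so the share below is near that of other repeats. The 5 are MTA_Mm, MTB, MT-int, ORR1A0 and ORR1A1, all of ERVL-MaLR.

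Within ERVL-MaLR, the ORR1 and MT terminal repeats had ratios that tended to decline along the letters of their names. This order was noticed in the data and is given as a description. ORR1A1 counted 14867 in the WT input, 11865 in the WT IP, 16907 in the 5xFAD input and 12704 in the 5xFAD IP. Its ratio was 1.24 in WT (1.21 to 1.27) and 1.04 in 5xFAD (1.02 to 1.07). ORR1A0 was close to it, with 8751, 6960, 10136 and 7764 counts and ratios of 1.23 (1.20 to 1.27) and 1.06 (1.03 to 1.09). Late in the letters, ORR1F counted 44967, 27324, 49359 and 30618 in the same order of libraries. Its ratio was 0.943 (0.929 to 0.957) in WT and 0.860 (0.848 to 0.873) in 5xFAD. ORR1F and ORR1A1 do not overlap in their intervals in either genotype. They were set side by side after the order was seen, so this adds no support to it.

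Summed by letter, log2 IP over input in WT ran from 0.20 for the 5 ORR1A repeats through 0.097 (ORR1B), 0.066 (ORR1C), 0.005 (ORR1D), -0.035 (ORR1E) and -0.085 (ORR1F) to -0.11 for ORR1G. The WT order of sums thus followed the alphabet without exception. In 5xFAD the sums were -0.013 for ORR1A, -0.071 for ORR1B, -0.018 for ORR1C, -0.075 for ORR1D, -0.16 for ORR1E, -0.22 for ORR1F and -0.21 for ORR1G, so that B and C, and F and G, were out of letter order. The gap between ORR1A and ORR1F, which no scaling changes, was 0.28 in WT and 0.20 in 5xFAD. By library total all 7 ORR1 letters had a lower log2 ratio in 5xFAD than in WT, whereas 2 of 7 did by TMM, 1 by DESeq2's size factors and 0 by the total of the gene rows.

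The MT repeats had a similar spread, with exceptions to the letter order at its end. MTA_Mm is the terminal repeat of the youngest MT elements, which are transcribed in oocytes and early embryos. It counted 45074 in the WT input, 33203 in the WT IP, 47861 in the 5xFAD input and 37124 in the 5xFAD IP, with ratios of 1.14 (1.13 to 1.16) and 1.08 (1.06 to 1.09). MTD, the row with the most counts of all 336, had 120657, 74415, 131422 and 85912 counts and ratios of 0.957 (0.948 to 0.966) and 0.907 (0.899 to 0.915). Summed log2 ratios were 0.19, 0.14, 0.027, -0.063 and -0.063 from MTA through MTE in WT and 0.11, 0.010, -0.11, -0.14 and -0.12 in 5xFAD. MTD and MTE were thus level in WT, and MTE was above MTD in 5xFAD. MTA exceeded MTE by 0.26 in WT and by 0.23 in 5xFAD. Under all scalings tried, ORR1A1 and MTA_Mm kept a ratio above 1 in both genotypes. ORR1A1 ranged from 0.18 to 0.48 in WT and from 0.044 to 0.41 in 5xFAD on the log2 scale.

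**Figure D3:**
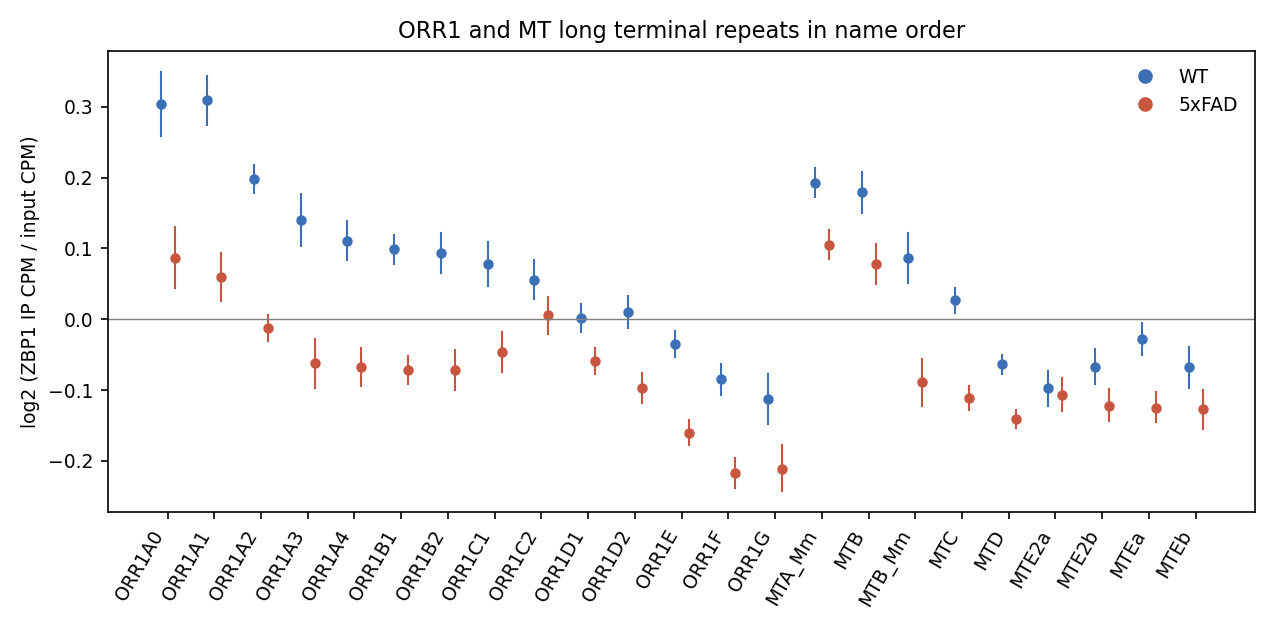
Log2 ratio of ZBP1 IP CPM to input CPM (y axis) for the 23 ORR1 and MT terminal repeats in name order (x axis), in WT (blue) and 5xFAD (red). Points are single library pairs and lines are exact 95% counting intervals; in WT the ORR1 values are highest at ORR1A0 and ORR1A1 and lowest at ORR1G, and by library total, which is plotted, the WT point lies above the 5xFAD point at each repeat.

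Of the 4 ORR1 internal parts, all but ORR1D-int lay well below their terminal repeats in WT. ORR1B1-int counted 36673, 21564, 37670 and 23840 and had a WT log2 ratio of -0.13, where the ORR1B1 terminal repeat (47875, 33046, 53206 and 36520 counts) had 0.099. ORR1A3-int was also at -0.13 in WT, against 0.14 for ORR1A3, and ORR1A1-int at 0.048, against 0.31 for ORR1A1. ORR1D-int, at -0.016, was close to ORR1D1 and ORR1D2, at 0.002 and 0.010. In 5xFAD the pairs lay at -0.19 and -0.071 for ORR1B1, at -0.075 and 0.060 for ORR1A1, and at -0.070 and -0.062 for ORR1A3. MTC-int lay below the MTC terminal repeat in WT (-0.080 against 0.027) and above it in 5xFAD (0.038 against -0.11). So the order of internal part and terminal repeat was not the same for all elements or in both genotypes.

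The 34 MLT1 rows, the widespread mammalian branch of ERVL-MaLR, were lower than the ORR1 rows. By library total their ratios were below 1 in 34 of 34 rows in WT and in 32 of 34 in 5xFAD, whereas by TMM 28 and 31 of them were above 1. Over all 9990 rows 68.5% and 83.1% were below 1 by library total. Their median log2 ratio was -0.11 in WT and -0.17 in 5xFAD, against 0.052 and -0.070 for the 18 ORR1 rows. MLT1A0, an abundant one, counted 17160, 10155, 18661 and 12292, at -0.12 and -0.13. ORR1E, the third most abundant ERVL-MaLR row, counted 61114, 38437, 67353 and 43471, at -0.035 and -0.16. The lowest of these rows in 5xFAD was MLT1M, with 385, 226, 433 and 213 counts, whose ratio was 0.911 (0.769 to 1.08) in WT and 0.682 (0.576 to 0.806) in 5xFAD.

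Summed ERVL rows had ratios of 0.959 (0.952 to 0.965) in WT and 0.9285 (0.923 to 0.934) in 5xFAD, close to ERV1 at 0.963 and 0.926. MERVL-int is the internal part of the mouse ERVL retrotransposon that is transcribed in the early cleavage embryo, with MT2_Mm as its promoter-bearing terminal repeat. MERVL-int counted 6008 in the WT input, 3842 in the WT IP, 6507 in the 5xFAD input and 4606 in the 5xFAD IP, and its ratio was 0.992 (0.953 to 1.03) in WT and 0.982 (0.945 to 1.02) in 5xFAD. MT2_Mm counted 2447, 1616, 2678 and 1900, with ratios of 1.03 (0.962 to 1.09) and 0.984 (0.927 to 1.04). By library total all 4 intervals include 1, and none of them reaches beyond 0.927 or 1.09. TMM raised the median log2 ratio of the 336 rows from -0.072 to 0.090 in WT and from -0.12 to 0.18 in 5xFAD. The intervals do not cover that shift. The most abundant ERVL rows were RMER15, MT2A and RMER10A. RMER15 counted 33177, 20597, 36055 and 23687, at log2 ratios of -0.054 and -0.13. MT2A counted 16366, 10205, 17946 and 12242, at -0.047 and -0.080. RMER10A counted 16406, 10097, 17158 and 10705, at -0.066 and -0.21. The medians of the ERVL family were -0.064 and -0.13.

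In ERVL, 0 of 116 rows had an interval above 1 in WT and 1 in 5xFAD, against 2.61% and 1.66% of all 9990 rows. Intervals lay below 1 for 20 rows in WT and 47 in 5xFAD, against 10.1% and 25.0% of all rows. Other repeat rows had 15.8% and 13.2% above 1, and 33.6% and 27.6% below. The 1 ERVL row above 1 in 5xFAD was MT2C_Mm. It counted 3716, 2509, 3847 and 2985, with a 5xFAD ratio of 1.08 (1.03 to 1.13) and a WT ratio of 1.05 (0.996 to 1.102). LTR89 was among the lowest rows in 5xFAD, with 236, 145, 265 and 126 counts and ratios of 0.953 (0.770 to 1.18) and 0.659 (0.529 to 0.818). The highest WT ratio of all 336 rows belonged to LTR108d_Mam of this family, with 52, 45, 47 and 41 counts. Its ratios of 1.34 (0.881 to 2.04) and 1.21 (0.776 to 1.88) were not distinguishable from 1 at that depth. LTR86B2, the highest row in 5xFAD, counted 66, 45, 54 and 56, with a 5xFAD ratio of 1.44 (0.972 to 2.13). MER76-int counted 42, 25, 41 and 36, and its 5xFAD ratio of 1.22 had an interval from 0.756 to 1.95. LTR108c_Mam (39, 14, 29 and 18 counts) and LTR108a_Mam (73, 33, 52 and 41 counts) were low in WT, at ratios of 0.557 (0.279 to 1.05) and 0.701 (0.450 to 1.07), and both intervals include 1.

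ERV1 rows include internal parts of gammaretrovirus-like elements of the mouse. MMERGLN-int, the internal part of GLN elements, counted 626, 427, 841 and 490, and its ratio was 1.06 (0.934 to 1.20) in WT and 0.808 (0.721 to 0.904) in 5xFAD. MMVL30-int, the internal part of VL30 elements, counted 2196, 1333, 2550 and 1456, with ratios of 0.942 (0.879 to 1.01) and 0.792 (0.742 to 0.845). MuRRS-int, from murine retrovirus-related sequences, counted 530, 338, 639 and 367, with ratios of 0.990 (0.861 to 1.14) and 0.797 (0.699 to 0.907). For these internal parts the 5xFAD interval lay below 1 by library total and the WT interval included 1. The related MuRRS4-int (371, 262, 447 and 325 counts) had a 5xFAD ratio of 1.01 (0.871 to 1.17), and RLTR6-int (562, 368, 538 and 356 counts) one of 0.918 (0.801 to 1.05). The RLTR6_Mm terminal repeat had 559, 334, 605 and 385 counts and a 5xFAD ratio of 0.883 (0.775 to 1.01). RLTR1, a terminal repeat, counted 143, 112, 162 and 119, with ratios of 1.22 (0.941 to 1.57) in WT and 1.02 (0.797 to 1.30) in 5xFAD.

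The elements of the murine leukaemia virus type were spread over several rows. RLTR4_MM-int, listed with no finer family, was the deepest of them, with 42483 counts in the WT input, 27035 in the WT IP, 48237 in the 5xFAD input and 29030 in the 5xFAD IP. Its ratio was 0.988 (0.973 to 1.003) in WT and 0.835 (0.823 to 0.847) in 5xFAD. By TMM its 5xFAD log2 ratio changed from -0.26 to 0.046. The terminal repeat RLTR4_Mm, listed under ERV1, had only 154, 104, 183 and 113 counts, and its ratios were 1.05 (0.809 to 1.35) and 0.856 (0.671 to 1.09). MuLV-int had 51, 25, 56 and 23 counts and the lowest 5xFAD ratio of all 336 rows, 0.570 (0.335 to 0.941), beside 0.761 (0.452 to 1.25) in WT. Reads of these closely related rows could have been divided among them in counting, which the sources used here do not describe.

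The most abundant ERV1 rows were RMER5, MLTR14 and RodERV21-int. RMER5 counted 16292, 9412, 17305 and 11795, with log2 ratios of -0.16 in WT and -0.081 in 5xFAD. MLTR14 counted 14739, 8792, 15979 and 10045, at -0.11 and -0.20. RodERV21-int counted 8320, 5350, 9080 and 6208, at -0.003 and -0.077. By library total RMER5 alone of these had the higher ratio in 5xFAD, with a difference of 0.077, and by TMM all of them did, at 0.22, 0.058 and 0.071. The 8 ERV1 rows with a WT interval above 1 were LTRIS_Mus, MERV1_I, MERV1_LTR, RLTR1A2_MM, RLTR1B, RLTR1C, RLTR41 and RLTR5_Mm. LTRIS_Mus counted 3673, 2712, 3825 and 2772, with ratios of 1.15 (1.09 to 1.20) and 1.01 (0.957 to 1.06). In 5xFAD 0 of 114 ERV1 rows had an interval above 1 by library total. Over all 9990 rows 2.61% lay above 1 in WT and 1.66% in 5xFAD, and over other repeat rows 15.8% and 13.2%. More ERV1 rows had an interval below 1 than above it, at 29 of 114 in WT and 38 of 114 in 5xFAD. All rows had 10.1% and 25.0% below 1, and other repeat rows 33.6% and 27.6%. The lowest WT rows of ERV1 were shallow. LTR109A2 counted 66, 23, 64 and 38, with a WT ratio of 0.541 (0.321 to 0.881), and MER110A counted 337, 142, 342 and 222, with 0.654 (0.534 to 0.798). RLTR47_MM counted 68, 37, 67 and 32, and its 5xFAD ratio was 0.662 (0.421 to 1.02).

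Gypsy rows were the lowest family in sum. Their counts added to 6108 in the WT input, 3443 in the WT IP, 6677 in the 5xFAD input and 4020 in the 5xFAD IP, and the ratios were 0.875 (0.839 to 0.912) in WT and 0.835 (0.803 to 0.869) in 5xFAD. By TMM the median log2 ratio of the 24 rows was -0.078 in WT and 0.044 in 5xFAD. Rows below 1 by library total were 21 of 24 (87.5%) in WT and 23 of 24 (95.8%) in 5xFAD, where all rows had 68.5% and 83.1%. LTR85b was above 1 in both, with 274, 186, 281 and 208 counts and ratios of 1.05 (0.870 to 1.27) and 1.03 (0.854 to 1.23). MamGypsy2-I, an internal part and the deepest Gypsy row, counted 656, 391, 713 and 447, with ratios of 0.925 (0.814 to 1.05) and 0.870 (0.771 to 0.980). LTR88c counted 464, 231, 506 and 278 and was below 1 in both genotypes, at 0.773 (0.657 to 0.907) and 0.762 (0.656 to 0.884). LTR85a (471, 255, 516 and 271 counts) had ratios of 0.840 (0.719 to 0.981) and 0.728 (0.627 to 0.845).

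The other Gypsy rows were the LTR81 group, LTR88a, LTR88b, LTR85c, LTR104_Mam and the MamGyp repeats, each with 75 to 421 counts in the WT input. MamGypLTR1b (264, 137, 288 and 154 counts) and MamGypLTR1c (278, 140, 307 and 169) had intervals below 1 in both genotypes, with 5xFAD ratios of 0.742 (0.606 to 0.905) and 0.764 (0.629 to 0.924). MamGypLTR3a (303, 182, 355 and 187) was below 1 in 5xFAD, at 0.731 (0.609 to 0.875), and at 0.932 (0.771 to 1.12) in WT. LTR81A and LTR81B were below 1 in WT, at 0.760 (0.605 to 0.95) and 0.813 (0.673 to 0.980), and had 5xFAD intervals that include 1. LTR81C had a 5xFAD ratio of 0.745 (0.574 to 0.963), and LTR104_Mam and LTR88b had 0.829 (0.713 to 0.962) and 0.837 (0.704 to 0.994). For LTR81, LTR81AB, LTR88a, LTR85c, MamGyp-int, MamGypLTR1a, MamGypLTR1d, MamGypLTR2b, MamGypLTR2c, MamGypLTR3, MamGypLTR4 and MamGypsy2-LTR both intervals include 1.

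Of the 17 rows with no finer family, all but RLTR4_MM-int were ancient mammalian repeats with at most 902 counts in the WT input. Eutr18 counted 211, 80, 190 and 139, with a WT ratio of 0.588 (0.449 to 0.764) and a 5xFAD ratio of 1.01 (0.809 to 1.27). EUTREP8 went the other way, with 116, 73, 128 and 56 counts and ratios of 0.977 (0.718 to 1.32) and 0.607 (0.435 to 0.837). LTR106_Mam, MamRep1151 and MamRep1527 had WT ratios of 0.723, 0.769 and 0.851, with intervals below 1, and 5xFAD intervals that include 1. LTR91A (594, 310, 619 and 355 counts), MamRep605b (654, 337, 702 and 410) and LTR90A (361, 187, 399 and 242) were below 1 in both genotypes, at 0.810, 0.800 and 0.804 in WT and 0.795, 0.810 and 0.841 in 5xFAD. For MamRep605, LTR91, LTR90B, MER129, EUTREP16, Eutr5, LTR107_Mam and UCON51 both intervals include 1. Of these, LTR107_Mam had the highest 5xFAD ratio, 1.23 (0.960 to 1.58) from 136, 91, 142 and 126 counts, and UCON51 the highest WT ratio, 1.21 (0.649 to 2.22) from 27, 21, 35 and 19 counts.

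Over all families, 52 internal parts and 284 terminal repeats had nearly the same median in WT, at -0.068 and -0.077 on the log2 scale. In 5xFAD the medians were -0.057 and -0.14. Summed over rows the order was the opposite in both genotypes: in WT internal parts had a ratio of 0.967 (0.960 to 0.975) and terminal repeats 0.994 (0.991 to 0.997), and in 5xFAD 0.916 (0.910 to 0.923) and 0.931 (0.929 to 0.934). RLTR4_MM-int and ORR1B1-int hold much of the internal sum, so the sum and the median describe different rows.

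Most of the extreme ratios belonged to shallow rows. ORR1A1 and ORR1A0, among the 5 highest rows in WT, were exceptions, with 56343 and 33611 counts over the 4 libraries. From rows with at least 100 counts to the 48 rows with at least 20000, the WT range narrowed from -0.87 to 0.43 to a range of -0.20 to 0.31, and the 5xFAD range from -0.79 to 0.52 to a range of -0.26 to 0.11. Spearman's rho between the WT and 5xFAD log2 ratios was 0.20 over 336 rows, 0.29 over the 236 rows with at least 1000 counts, 0.51 over 116 rows with at least 5000 and 0.70 over those 48. Pearson's r over the 48 was 0.74. These are descriptions across repeat rows, which are not independent: all rows of a genotype share 1 input and 1 IP, and related rows share sequence. No p is given for them.

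**Figure D4:**
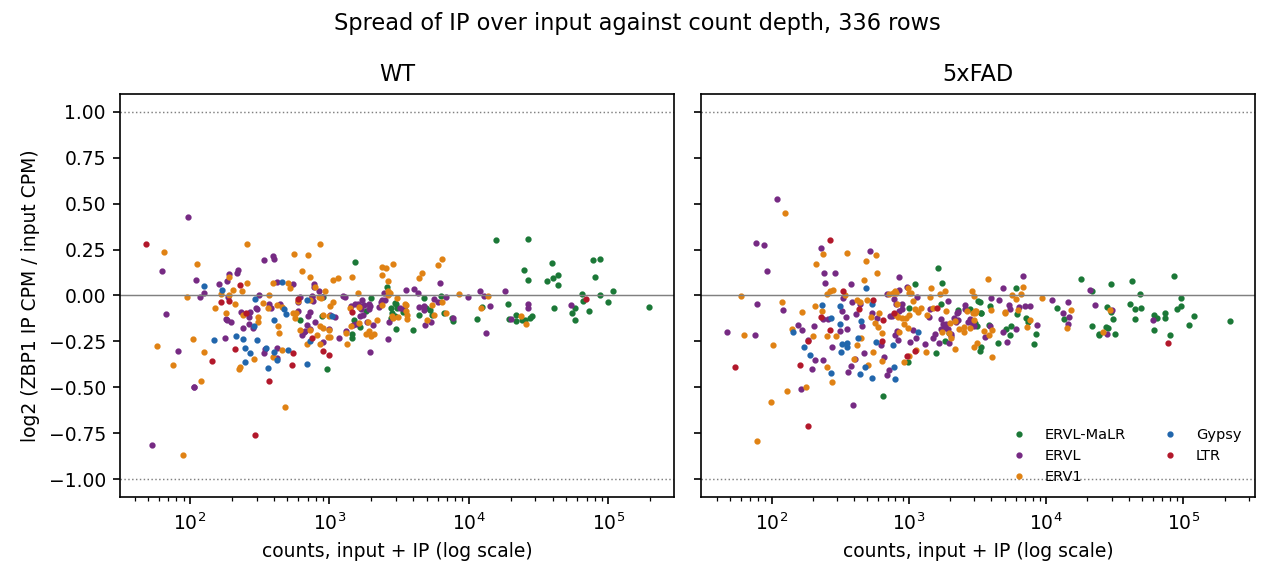
Log2 ratio of ZBP1 IP CPM to input CPM (y axis) against the summed counts of input and IP (x axis, log scale) for the 336 rows in WT (left) and 5xFAD (right), coloured by family, 1 library pair per panel. Dotted lines mark a 2-fold difference. The spread narrows as counts grow, and most of the rows farthest from 0 have few counts.

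Between genotypes, the log2 ratio of these rows was lower in 5xFAD by library total, with a median difference (5xFAD minus WT) of -0.058 and a difference of -0.092 (-0.097 to -0.087) for the summed counts. TMM and DESeq2's size factors turned the sum to 0.052 and 0.088. The gene rows had a median difference of -0.23, ERVK rows -0.045 and LINE rows 0.14, so that 285 of 336 (84.8%) lay above the gene median, 160 (47.6%) above the ERVK median and 47 (14.0%) above the LINE median. By library total the interval of the difference lay above 0 for 16 rows (4.76%) and below 0 for 67 (19.9%). Over all 9990 rows these were 2.84% and 9.84%, and over the other repeat rows 19.3% and 15.3%. The share below 0 was thus near that of other repeats, and the share above 0 under it. Of the 67, 31 were of ERVL-MaLR, 23 of ERV1, 11 of ERVL, 2 without a finer family and 0 of Gypsy.

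The largest differences were MER92A, Eutr18, LTR108a_Mam, LTR108c_Mam and LTR109A2 on the 5xFAD side. MER92A counted 82 in the WT input, 38 in the WT IP, 63 in the 5xFAD input and 62 in the 5xFAD IP, which gives a difference of 0.91 (0.17 to 1.66). Eutr18 had 0.78 (0.30 to 1.27), and the intervals of the other rows named include 0. On the WT side RLTR5_Mm counted 484, 378, 588 and 330, with ratios of 1.21 (1.06 to 1.39) and 0.778 (0.678 to 0.892) and a difference of -0.64 (-0.91 to -0.36). EUTREP8 had -0.68 (-1.30 to -0.066) and MLT2E, with 230, 170, 261 and 148 counts, had -0.54 (-0.95 to -0.14). UCON51 and LTR16D2 (97, 65, 109 and 55 counts) had -0.67 and -0.57, with intervals that include 0. Rows whose intervals lay above 1 in WT and below 1 in 5xFAD were 10: MTB_Mm, MTC, ORR1A3, ORR1A4, ORR1B1, ORR1B2, ORR1C1, RLTR1C, RLTR41 and RLTR5_Mm (2.98%), and the reverse pattern was seen in 0. Over all rows these shares were 0.35% and 0.25%, and over other repeat rows 2.17% and 2.77%. MTC counted 64891, 42605, 71860 and 47972, with ratios of 1.02 (1.01 to 1.03) and 0.926 (0.915 to 0.937). By TMM its log2 ratio was above 0 in both genotypes.

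**Figure D5:**
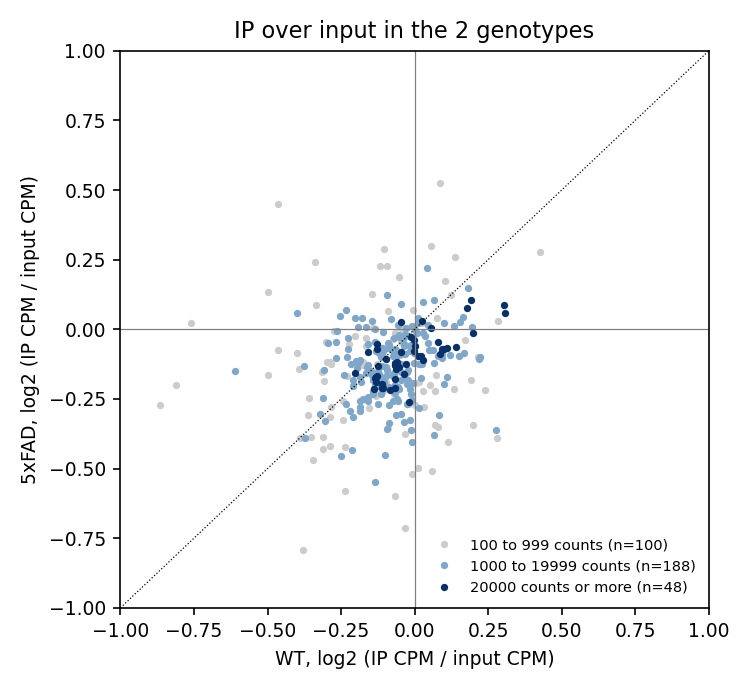
Log2 ratio of ZBP1 IP CPM to input CPM in 5xFAD (y axis) against WT (x axis) for the 336 rows, shaded by summed counts over the 4 libraries, 1 library pair per genotype. The dotted line marks equal ratios; the 48 deepest rows lie along it but mostly under it, and shallow rows scatter widely.

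Between genotypes the inputs differed as well as the IPs, so a difference of ratios holds changes in both. The median of log2 5xFAD over WT was 0.032 between the inputs and -0.030 between the IPs. Single rows ran from -0.57 to 0.48 and from -0.63 to 0.63. For MMERGLN-int the values were 0.34 between inputs and -0.047 between IPs, and for LTR108a_Mam -0.57 and 0.063. For RLTR5_Mm they were 0.20 and -0.44. The authors' deposited table of comparisons calls 0 of these 336 rows in each of its comparisons. Over all rows that table calls 24 in WT IP against input, 23 in 5xFAD IP against input and 2 between the IPs. The median log2 fold change of the 336 rows in the authors' deposited table was 0.12 in WT and 0.26 in 5xFAD, beside 0.006 and -0.008 for gene rows and 0.090 and 0.18 for the same rows by TMM here. No deposited p-value is given here, since 1 library per group cannot speak for the conditions.

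Genes of the pathways around these repeats had few counts. Of 21 genes that silence LTR elements, such as Setdb1 and Trim28, 16 had at least 100 counts, with median log2 IP over input of -0.27 in WT and -0.48 in 5xFAD, beside -0.17 and -0.39 for all gene rows. None was 2-fold higher, and 1 was 2-fold lower, which was the histone methyltransferase Ehmt2 in 5xFAD (63, 34, 60 and 15 counts), where 6.71% of all rows were as low. Of 12 genes of the ZBP1 pathway 7 had the minimum, and Zbp1 itself was the 1 at least 2-fold higher in IP in each genotype. It had 26, 53, 25 and 50 counts, and 0.41% of all rows in WT and 0.23% in 5xFAD were as high. In the WT input Zbp1 stood at 35.5 CPM of the gene rows, against a mean of 0.158 CPM in the hippocampal WT libraries of the Zbp1 cohort. What its RIP counts stem from was not tested. Of 24 genes derived from LTR elements, 20 were in the table and 8 had the minimum, with medians of -0.12 and -0.056 and 0 past 2-fold. Arc, whose protein forms capsids from a Gypsy-type Gag domain, counted 24, 19, 31 and 26. Peg10, an imprinted gene of the same origin, counted 37, 20, 49 and 34.

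As to the libraries as a whole, totals ran from 5742746 counts (WT IP) to 9444018 (5xFAD input), and repeat rows took 91.0% to 92.4% of them although all 4 carry the label of polyadenylated RNA. Thy1, whose promoter drives the transgenes, had 13 and 17 counts in WT input and IP and 1131 and 751 in 5xFAD, so it was high in both libraries with the 5xFAD label and low in both without. The ribosomal rows Rn18s and Rn45s took 0.161% and 0.221% of the inputs and 1.6% and 1.11% of the IPs. Of 8 structured RNAs 5 had the minimum, and all 5 were past 2-fold higher in both IPs, where 0.41% of all rows in WT and 0.23% in 5xFAD were. Hippocampal identity could be checked only weakly: 24 brain cell markers had a median of 43 counts in the WT input and 990 olfactory receptor genes one of 7. Snap25, a synaptic gene, stood at 52.0 CPM of the gene rows in the WT input and at 1980 ± 96.6 CPM (SD, n = 3) in the hippocampal WT libraries of the Zbp1 cohort. Over 22835 genes the WT input counts had a Spearman's rho of 0.68 with the span of the gene in RefSeq and 0.61 with hippocampal CPM. The part of these features in the repeat ratios was not tested.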

How the data were processed

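The authors deposited 1 table of counts, whole numbers per gene symbol or repeat row, for the 4 RIP libraries, and a table of their own comparisons with log2 fold changes, log2 CPM, p-values and a call score, per the file headers. Per the submitters' processing notes the tools were HISAT2, DESeq2 1.42.1 and edgeR 4.0.16, with builds mm10 (GRCm38) and mm39 (GRCm39). How reads that map to many copies or to both strands were counted is not given in the sources used here. Groups came from sample titles, since the genotype label names both genotypes on each RIP library.

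From the counts, CPM were computed on the total of each library (8911548 for WT input, 5742746 for WT IP, 9444018 for 5xFAD input and 6808879 for 5xFAD IP). Rows needed at least 100 counts over the 4 libraries. Log2 ratios used a pseudocount of 0.5 counts scaled to each library. Intervals are exact (Clopper-Pearson, conditional on the sum of both counts) at 95%, and those of a difference between genotypes are a normal approximation from the 4 counts. "Called" means past 2-fold. No test across conditions was made with 1 library per group. Scaling factors came from edgeR 4.0.16 (TMM) and DESeq2 1.42.0 in R 4.3.3, and the rest from Python 3.11.15 with scipy 1.17.1. The calculation was tested on simulated data. Gene span came from RefSeq (GRCm38.p6), and hippocampal CPM from the deposited counts of the Zbp1 cohort.

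The members, the gene lists and the rule for named rows were chosen with earlier results of these data known. Named were the 3 rows with the most counts in ERV1, ERVL and ERVL-MaLR, all rows of the smaller families, the 5 highest and 5 lowest ratios per genotype, the 5 highest and 5 lowest differences, and 14 rows by name. MTB to MTE, the ORR1 and MT internal parts, ORR1B to ORR1G, MLT1A0, MT2C_Mm, LTRIS_Mus, other rows listed by their intervals, and MT-int were named after their values were seen. Alternatives were other scalings, other minimums, another pseudocount and another fold. Tables of the hippocampal cohorts' comparisons hold no repeat rows and were not used. No repeat sequence is printed.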

Additional observations from a re-analysis of the deposited data

Results flagged for a closer look

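Of the 10 rows with counting intervals on opposite sides of 1 in the genotypes, 2 were rows named by the rule given with the processing. MTC, an ERVL-MaLR terminal repeat, had a log2 IP over input of 0.027 in WT and -0.11 in 5xFAD, a difference of -0.14. It lay above 0 in both genotypes by TMM (0.19 and 0.20) and by DESeq2's size factors (0.19 and 0.24), and by the total of the gene rows the signs were exchanged (-0.10 and 0.063). RLTR5_Mm, an ERV1 terminal repeat, had 0.28 in WT and -0.36 in 5xFAD, a difference of -0.64. Its signs stayed opposite under each of the 5 other scalings, with 5xFAD values from -0.38 to -0.014. By TMM and DESeq2's size factors the 5xFAD values were only -0.054 and -0.014. Intervals were computed by library total, so intervals on opposite sides of 1 were not shown for other scalings. The difference was not tested for either row, since each genotype has 1 library pair.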

How the results depend on the processing

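The sums over all rows, as log2 IP over input, depended on the scaling. By library total they were -0.013 in WT, -0.11 in 5xFAD and -0.092 for the difference. By TMM they were 0.15, 0.20 and 0.052, and by DESeq2's size factors 0.15, 0.24 and 0.088. By the total of the repeat rows they were -0.001, -0.12 and -0.12, by the total of the gene rows -0.14, 0.068 and 0.21, and without the 20 rows with the most counts -0.003, -0.070 and -0.067. The cause was not tested. A minimum of 500 counts or a pseudocount of 5 left them within 0.001. Counts past 2-fold stayed at 0 under every scaling, the higher minimum and the larger pseudocount. With no minimum, 1 row was 2-fold lower in WT and 1 in 5xFAD, in both cases MER83B-int (13, 3, 14 and 4 counts). At a fold of 1.5, 4 rows were lower in WT and 3 in 5xFAD, and 0 were higher. No paired analysis was possible because each RIP group is 1 library, and no replicate could be left out for the same reason. Depth limits single rows: at 100 counts in all, LTR108c_Mam had a WT interval from 0.279 to 1.05.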

Other observations

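The 8 rows of these families under the minimum were LTR45C, LTR58, LTR75_1, MER101B, MER4B-int and MER83B-int of ERV1, X1_LR of Gypsy and UCON103. Their counts summed to between 34 (MER83B-int) and 88 (MER101B and UCON103). RLTR4_MM-int had 42483 counts in the WT input where its terminal repeat RLTR4_Mm had 154, whereas ORR1B1-int and the ORR1B1 terminal repeat had 36673 and 47875.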
